A study of Mus musculus with 4 samples.

Results

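Hindbrain neural tube progenitors, the dividing cells that line the ventricle of the embryonic hindbrain, were selected from single-cell transcriptomes of the mouse otic region. A cell was taken when its raw UMIs (unique molecular identifiers, each a counted RNA molecule) of Sox1, Pax6, Rfx4 and Msx3 summed to at least 3, with at least 1 UMI of Sox2, none of Epcam and at most 2 of Elavl3. Cells also had to show at least 1000 genes and at most 10% mitochondrial UMIs. In all, 373 of 14985 quality-filtered cells met these conditions, themselves part of 19567 deposited barcodes. Embryos of 2 genotypes on a Swiss-Webster background were compared at E10.5, at 34 to 36 somites. The conditional knockout (cKO) embryos were Tbx2f/f and Tbx3f/f and carried Pax2-Cre with Rosa26GFPf/+, and the control embryos carried Pax2-Cre with Rosa26GFPf/+ alone, so that both genotypes had the Cre driver and the reporter. Each genotype had 2 libraries, from 2 cKO embryos and 3 control embryos whose vesicles were pooled, and the labels do not say how embryos were divided among libraries. Live GFP-positive cells were sorted, so every cell is assumed to descend from a cell in which Pax2-Cre was active, and the neural tube was taken only as far as it adjoins the ear. Any p-value therefore rests on differences among libraries that could be technical replicates.

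Neural tube progenitors keep SOXB1 transcription factors on, receive Notch signals through HES proteins, and leave the cycle to become neurons. Their position along the head-to-tail axis is read from Hox genes, which are switched on in nested domains with sharp borders between the hindbrain segments called rhombomeres. Their position from back to belly is set by BMP and WNT proteins from the roof plate and by Sonic hedgehog from the floor plate, which divide the progenitors into domains of PAX, MSX, bHLH and NKX factors. TBX2 and TBX3 are T-box repressors known in this region from the otic epithelium.

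The cells numbered 191 and 62 in the cKO 1 and cKO 2 libraries, against 55 and 65 in the control 1 and control 2 libraries. They were 5.71% of the filtered cells in cKO 1 (exact binomial 95% interval 4.95 to 6.55%) and 1.61% in cKO 2, against 1.37% in control 1 and 1.73% in control 2. The cKO 1 library thus stood apart from the other 3. The group means, 3.66% in cKO and 1.55% in control, differed by 2.11 points (exact two-sided permutation test, p = 0.667), and by 0.0572 points without cKO 1. The dissection and the sort can set this share. Median UMIs per cell were 23771 and 17903 in the cKO libraries, against 19615 and 19715 in the control libraries. The median mitochondrial share was 1.00% and 1.15% in cKO cells and 1.99% and 2.26% in control cells, a difference also present in all other filtered cells. No barcode of these cells was shared between libraries, although 2 to 8 barcodes were shared by each pair of libraries as a whole.

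Markers of cell classes were read in the selected cells. The 12 progenitor markers summed to 3957 and 3978 UMIs per 1000000 UMIs (CPM) in the cKO libraries and 4049 and 5265 CPM in the control libraries, and to between 465 and 681 CPM in the remaining cells. Sox1, Pax6, Rfx4, Msx3 and Sox2 are among the 12 and were used by the selection, so this excess was partly fixed beforehand. Hes5 and Fabp7 were not used by it. Hes5, a Notch target, was found in 87.7% of the cells, and Fabp7, a fatty acid binding protein of radial glia, in 96.8%. In leukocytes, which should lack both and so show free RNA, 2.61% and 3.48% of 230 cells had a UMI, at a median depth of 39126 to 51387 UMIs. Pax7, a dorsal PAX factor on the marker list that the selection did not use, was found in 36.5%, so it marked a minority. Markers of other classes were low: the 8 otic epithelium markers summed to between 12.3 and 46.1 CPM with Hmx3 at 0 (and Epcam at 0 by the selection), the 4 leukocyte markers to at most 0.877 CPM, and Trp63, Krt5 and Krt14 of the surface ectoderm were at 0. Pan-neuronal and neuron subtype genes were not absent, at 103 and 142 CPM over 8 markers in cKO cells against 127 and 199 CPM in control cells. The selection capped Elavl3, which is among these 8, at 2 UMIs. The rule left 27 cells just inside with exactly 3 UMIs of the 4 selecting genes and 27 just outside with 2, and 65 further cells were outside only because Elavl3, a neuronal RNA-binding protein, reached 3 UMIs.

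The targeted genes were at background in these cells. Tbx2 had 0 and 0 UMIs in the cKO libraries and 1 and 1 in the control libraries, and Tbx3 had 0 and 1 against 0 and 1. The remaining cells held 35.4 and 45.2 CPM of Tbx2 in cKO against 60.3 and 62.8 CPM in control, and leukocytes held 2.71 to 6.86 CPM. At such counts the loss of either gene could not be checked within the progenitors. Tbx1, a related T-box factor, was equally low, at 3 and 0 UMIs in cKO and 2 and 2 in control. None of the 12 T-box genes listed passed the filter on low counts.

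The Hox genes placed most of the cells behind the front border of the Hox domain and in front of the territory of the fourth paralog group. Hoxb2, which borders on rhombomere 3, had 263 and 244 CPM in the cKO libraries and 235 and 199 CPM in the control libraries. Hoxa2, the only Hox gene that reaches rhombomere 2, had 131 and 112 CPM in cKO and 72.1 and 106 CPM in control. Hoxb1, which is kept on in rhombomere 4, had 93.0 and 68.4 CPM in cKO and 62.9 and 29.2 CPM in control. For all of these 3 genes both cKO libraries lay above both control libraries, a pattern that 18% of all tested genes shared, with the nearest libraries close together, and none passed the genotype test (adjusted p 0.366, 0.276 and 0.228 by the edgeR quasi-likelihood test described further on). Values are UMIs of tags from the 3' end, which do not grow with transcript length.

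The third paralog group, which begins behind rhombomere 4, was lower. Hoxa3 had 12.6 and 19.3 CPM in cKO and 22.6 and 31.5 CPM in control, Hoxb3 had 17.96 and 27.2 CPM against 26.0 and 30.7 CPM, and Hoxd3 had 7.91 and 10.53 CPM against 15.1 and 14.2 CPM. The libraries of the genotypes did not overlap for Hoxa3 and Hoxd3, which were lower in both cKO libraries as were 26.9% of all tested genes, and none of the 3 passed the test (adjusted p 0.280, 0.576 and 0.417). Hoxb4, the most abundant gene of the fourth group, stayed at 0.838 to 4.92 CPM, and every Hox gene on the list from the fifth group on was at 0 UMIs, which allows up to 0.642 CPM in cKO 1 and 2.63 CPM in cKO 2 by counting error.

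**Figure D1:**
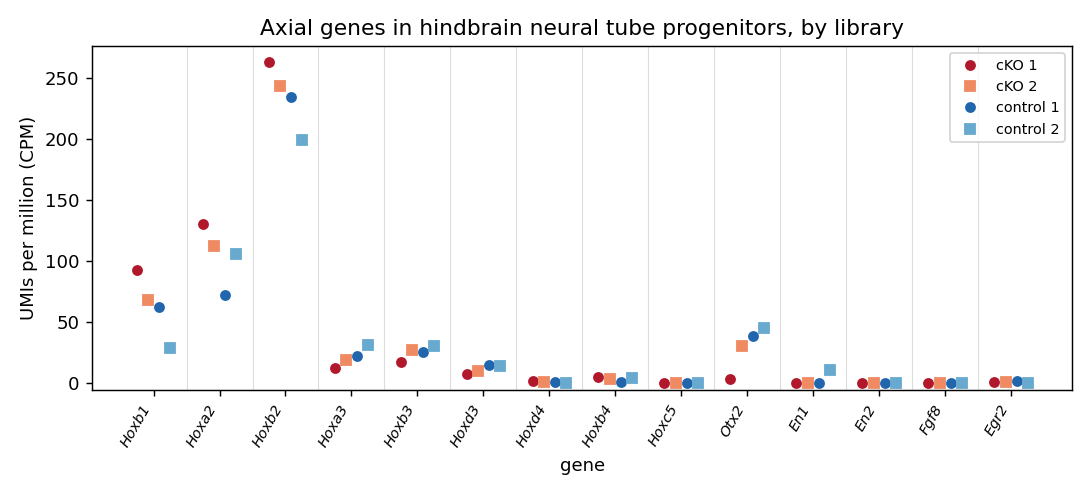
Level of axial genes in the progenitor cells, in CPM on the y axis, with 1 point per library. Hoxb1, Hoxa2 and Hoxb2 stand between 29.2 and 263 CPM in every library, the third Hox group between 7.91 and 31.5 CPM, and En2 and Fgf8 are at 0 in all 4.

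Hoxb1 and Hoxa2, genes of the first and second groups that hold an entry in the promoter table used here, are shown with the 250 bases before their RefSeq start (build GRCm38.p6). Hoxb1 is known to keep itself on in rhombomere 4 through paired PBX and HOX sites beside its promoter. Capitals mark matches to TGATNNAT, a PBX-HOX motif searched on both strands, in chr11:96365508-96365757 on the plus strand and in chr6:52164832-52165081 on the minus strand.
Hoxb1: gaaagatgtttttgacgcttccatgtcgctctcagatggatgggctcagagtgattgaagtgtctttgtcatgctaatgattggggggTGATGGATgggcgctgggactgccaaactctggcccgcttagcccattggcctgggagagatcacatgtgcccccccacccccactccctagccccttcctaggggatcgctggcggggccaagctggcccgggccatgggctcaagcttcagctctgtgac
Hoxa2: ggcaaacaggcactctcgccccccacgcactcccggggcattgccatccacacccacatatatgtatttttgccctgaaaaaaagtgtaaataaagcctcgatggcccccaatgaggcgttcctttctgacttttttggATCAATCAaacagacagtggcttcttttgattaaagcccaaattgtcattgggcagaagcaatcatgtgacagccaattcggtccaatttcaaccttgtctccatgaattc
The match of Hoxb1 begins 162 bases before the start and that of Hoxa2, on the opposite strand, 111 bases before it. Among 32851 promoter entries of the same length 7.68% held the motif, and Hoxa3 and Hoxd3 held none. A match describes the letters and is no proof of binding.

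Each cell was given the most posterior Hox paralog group with at least 2 UMIs as a range of axial levels. Groups 1 and 2 were the last in 139 and 41 cells of the cKO libraries and 32 and 38 cells of the control libraries, which is 72.8% and 66.1% against 58.2% and 58.5%. The third group was the last in 35 and 12 cKO cells and in 19 and 21 control cells, which is 18.3% and 19.4% against 34.5% and 32.3%. Both cKO libraries were therefore below both control libraries for the third group, by 14.6 points on average (exact two-sided permutation test, p = 0.333, the smallest p that 2 against 2 libraries allow). With each cell thinned to 10000 UMIs the third group was the last in 7.14% and 9.26% of cKO cells and 13.0% and 13.3% of control cells, the same order at a smaller distance. Leukocytes reached it in 0.446% of cells at that depth.

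Cells with no Hox group at 2 UMIs were few, 11 and 7 in cKO and 4 and 4 in control. Their share was 5.76% and 11.3% in cKO and 7.27% and 6.15% in control, a difference of 1.81 points (exact two-sided permutation test, p = 1). The sign of that difference depended on the threshold and the depth. At 3 UMIs it was -2.88 points, with cells thinned to 10000 UMIs -5.92 points, and without cKO 2 -0.954 points. Among midbrain and forebrain genes En2, Fgf8, Six3, Rax and Six6 had no UMI in any library. Otx2, best known from the forebrain and midbrain, had 3.85 and 30.7 CPM in cKO and 38.6 and 45.7 CPM in control (log2 fold change -1.80, SE 0.64, adjusted p = 0.279), and both cKO libraries lay below both control libraries. Single cells held 29 and 19 of the 61 Otx2 UMIs of control 2, and 22 of the 46 of control 1, so this order rests on few cells. Gbx2, a homeobox gene of the anterior hindbrain, had 9.22 to 11.2 CPM in the 4 libraries. En1, a homeobox gene of the midbrain and anterior hindbrain, had 1 and 0 UMIs in cKO and 0 and 15 in control, and the 15 came from 1.54% of the control 2 cells. Egr2, which marks rhombomeres 3 and 5, had 5 and 1 UMIs in cKO and 2 and 1 in control.

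**Figure D2:**
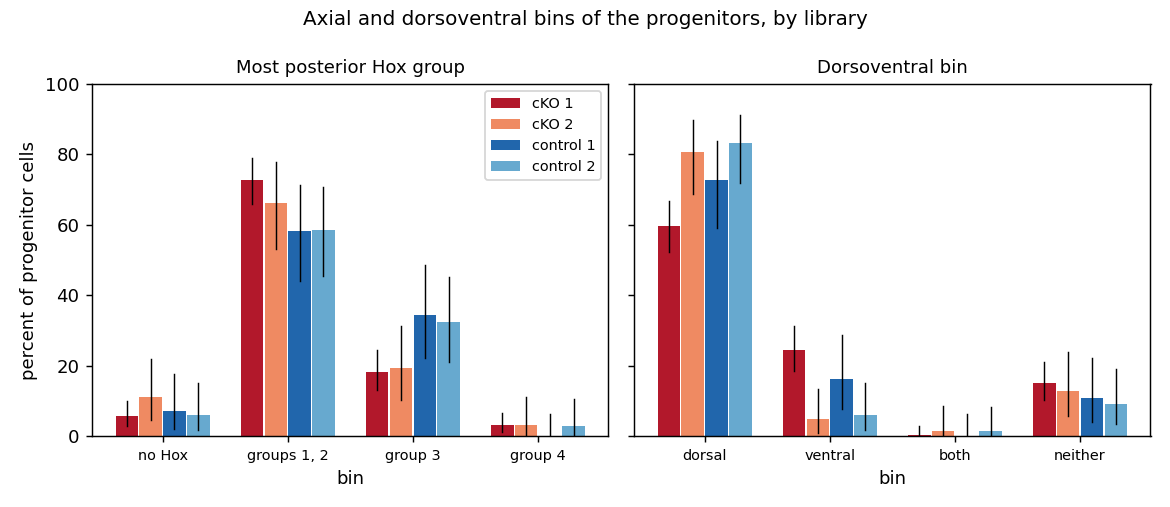
Percent of progenitor cells in each axial bin (left) and dorsoventral bin (right), with 1 bar per library and exact binomial 95% intervals, which cover counting error only. The third Hox group holds 18.3% and 19.4% of cKO cells against 34.5% and 32.3% of control cells, and cKO 1 has the most ventral cells, at 24.6%.

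From back to belly, most of the cells were dorsal. Cells with at least 2 UMIs of dorsal genes (Pax3, Pax7, Msx1, Wnt1, Wnt3a, Lmx1a, Gdf7, Atoh1, Olig3) and at most 1 of ventral genes (Nkx6-1, Nkx6-2, Olig2, Nkx2-2, Nkx2-9, Foxa2, Shh) numbered 114 and 50 in cKO and 40 and 54 in control. That is 59.7% and 80.6% of the cKO cells and 72.7% and 83.1% of the control cells. The mean difference was -7.74 points (exact two-sided permutation test, p = 0.667), and without cKO 1 it was 2.74 points. Since Msx3, a dorsal homeobox gene, and Pax6, which is low in the most ventral cells, helped to select the cells, the shares do not stand for the whole neural tube.

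Pax3, a PAX factor of the dorsal neural tube, had 138 and 146 CPM in cKO and 128 and 187 CPM in control. Olig3, a bHLH factor of the most dorsal neuron-producing domains, had 46.6 and 91.3 CPM in cKO and 60.4 and 96.7 CPM in control. Levels of both genes overlapped between the genotypes. Atoh1, the bHLH factor of the rhombic lip, had 28.2 and 77.2 CPM in cKO and 5.03 and 21.7 CPM in control (log2 fold change 1.76, SE 0.57, adjusted p = 0.250), with both cKO libraries above both control libraries. Cells with at least 2 UMIs of Atoh1 numbered 39, of which 34 also had Olig3 at that level. Genes that led the Atoh1 cells over those without it were Cntn2, an axonal adhesion molecule, at 60.8 against 0.138 CPM, and Barhl1, a homeobox gene of rhombic lip derivatives, at 46.2 against 0.413 CPM.

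Of the 10 dorsal progenitor genes tested, 5 were lower and 1 higher in both cKO libraries (26.9% and 18% of all tested genes), with a median log2 fold change of -0.31, and none passed. Zic1, Zic2 and Zic5, zinc finger factors of the dorsal neural tube, were among the lower ones. Zic1 had 81.5 and 160 CPM in cKO and 188 and 202 CPM in control (log2 fold change -0.75, SE 0.24, adjusted p = 0.256). In the dorsal cells alone its log2 fold change was -0.53, and the median of the 10 dorsal progenitor genes was -0.18. Of the 8 roof plate genes tested, 3 were lower in both cKO libraries, namely Lmx1a, Bmp6 and Rspo3, against 26.9% of all tested genes, with a list median of -0.62 (-0.56 in the dorsal cells alone). Over all 8447 genes tested the median was -0.0047. None of the 5 intermediate genes passed, Dbx1 and Irx3 included.

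Ventral cells came mainly from 1 library. They numbered 47 and 3 in cKO and 9 and 4 in control, which is 24.6% and 4.84% against 16.4% and 6.15%. Nkx6-2, a homeobox gene of ventral progenitors, had 100.1 and 9.65 CPM in cKO and 24.3 and 10.49 CPM in control. Nkx2-9, found next to the floor plate, had 259 and 0 UMIs in cKO and 14 and 9 in control, and Foxa2, the floor plate factor, had 57 and 0 against 3 and 0. For these genes cKO 1 was the highest library and cKO 2 was at or below both control libraries, and no ventral gene passed the genotype test. No cell among 53 with at least 2 UMIs of Nkx6-2 reached 2 UMIs of Pax3, although 52.3% of all progenitors did, and only 3 of the 373 cells held dorsal and ventral genes together. Beside Nkx factors, Spon1, a floor plate matrix protein, led the cells with ventral genes, at 137 against 3.44 CPM in the dorsal ones.

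The Hoxb1-positive cells differed from the rest in more than axial level. With at least 2 UMIs they numbered 56 and 15 in cKO and 13 and 9 in control, 93 in all, against 275 with none. Nkx2-9 had 103 CPM in them against 4.52 CPM, and Nkx6-2 had 142 against 30.3 CPM. Fgf9, a secreted growth factor, was found in 21.5% of the Hoxb1-positive cells and in 2.18% of the Hoxb1-negative ones. These are descriptions over cells pooled across libraries, in which cKO 1 gave 56 of the 93 cells.

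A small group of cells carried Rspo1, a secreted enhancer of WNT signalling, and was defined after its values had been seen. It held 7 and 11 cells in cKO and 10 and 7 in control, 35 in all, with at least 2 UMIs. Its leading genes were Rspo3, a second R-spondin, at 446 CPM against 0.559 CPM in cells without Rspo1, Colec12, a scavenger receptor, at 377 against 2.23 CPM, and Bambi, a decoy receptor for BMP, at 441 against 4.33 CPM. Roof plate genes were gathered there as well. All 14 cells with at least 2 UMIs of Lmx1a, a LIM homeobox gene required for the roof plate, were in it, as were 24 cells with Wnt1, against 15 among cells without Rspo1. Hes5 was low in it, at 187 against 730 CPM.

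An axial landmark gene followed these cells. Otx2 had at least 2 UMIs in 20 cells, of which 19 were Rspo1-positive. Of the 20 Otx2 cells 13 also had Hoxb2 at that level (65%), against 81.5% of all progenitors, and 5 had no Hox group at 2 UMIs (25%), against 6.97% of all progenitors. In the Rspo1-positive cells Otx2 had 101 and 129 CPM in cKO and 151 and 285 CPM in control, and both cKO libraries lay below both control libraries. These control levels rest in large part on the same few cells with many Otx2 UMIs.

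**Figure D3:**
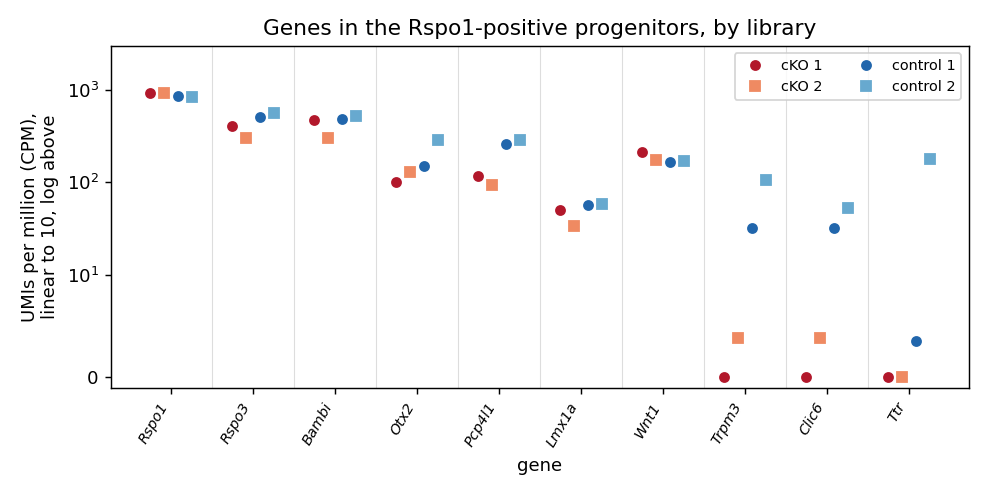
Levels in the Rspo1-positive progenitors (7 and 11 cKO cells, 10 and 7 control cells), in CPM on an axis that is linear to 10 and logarithmic above, with 1 point per library. Rspo1 and Wnt1 lie at like levels in both genotypes, which for Rspo1 was partly fixed by the selection of the cells. Trpm3 and Clic6 have 0 and 3.78 CPM in cKO against 32.3 CPM or more in control. The control UMIs of both came from few cells, and Clic6 was chosen after its values had been seen.

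Across the whole transcriptome few genes separated the genotypes in these cells. UMIs were summed per library (4675812 and 1139670 in cKO, 1192681 and 1334414 in control) and tested with the edgeR quasi-likelihood test, with Benjamini-Hochberg adjustment over 8447 genes. At an adjusted p under 0.05, 47 genes were called, 0.556% of those tested, of which 22 were higher in cKO (0.26%) and 25 lower (0.296%). DESeq2 on the same sums called 72, with 51 higher and 21 lower. The libraries did not overlap for any of the 47, a pattern that 44.9% of all tested genes shared. The number depended on the libraries: without cKO 1 it was 158, without cKO 2 it was 346, without control 1 it was 95 and without control 2 it was 30. In the dorsal cells alone, an alternative added after the ventral excess of cKO 1 had been seen, 35 of 7941 genes were called (0.441%), of which 30 were among the 47.

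The rise with the lowest adjusted p was that of a ubiquitin gene. Ubb, a polyubiquitin gene at chr11:62551171-62553213 (mm10), had 1269 and 1662 CPM in cKO and 197 and 219 CPM in control (log2 fold change 2.85, SE 0.14, adjusted p = 8.05e-06). Both cKO libraries lay far above both control libraries. The same held outside the neural tube: in Epcam-positive cells Ubb had 1909 and 1983 CPM in cKO against 222 and 268 CPM in control, and leukocytes had 896 and 1134 CPM against 123 and 174 CPM. The difference between progenitors and Epcam-positive cells was -0.23 on the log2 scale in the interaction test described further on, and was not called. Of 20 listed stress and metallothionein genes 8 were tested. Among them Hspa8, Hsp90aa1, Dnajb1 and Jun were lower and Ier2 higher in both cKO libraries, and these 5 were not called. Over all tested genes 26.9% were lower and 18% higher in both cKO libraries.

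Sox9, a SOXE factor that neural progenitors switch on as they gain stem cell and glial potential, was lower in cKO. It had 43.6 and 33.3 CPM in cKO and 116 and 152 CPM in control (log2 fold change -1.68, SE 0.18, adjusted p = 0.00272), at chr11:112782224-112787760. Both cKO libraries lay below both control libraries within each part of the progenitors given here. These parts overlap and hold the same cells and libraries that gave the call, so they are no independent support. Dorsal cells had 40.3 and 35.1 CPM in cKO and 116 and 155 CPM in control, cells with ventral genes, alone or with dorsal ones, 49.4 and 12.7 CPM against 122 and 167 CPM (1 UMI in the 4 such cells of cKO 2), and Hoxb1-positive cells 54.7 and 72.7 CPM against 107 and 128 CPM. Leukocytes had 4.49 to 14.3 CPM. Leaving out any 1 library kept the call, with log2 fold changes between -1.94 and -1.48. In Epcam-positive cells Sox9 had 115 and 116 CPM in cKO and 277 and 261 CPM in control. The fold change of the progenitors was lower by 0.54 on the log2 scale in the interaction test described further on (SE 0.15, adjusted p = 0.0236).

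No gene of the neural progenitor list passed. Of its 19 tested genes 10 were lower in both cKO libraries and 0 higher, with a median log2 fold change of -0.25, where 26.9% of all tested genes were lower in both and 18% higher in both. Fabp7 had 610 and 856 CPM in cKO and 1031 and 1462 CPM in control (log2 fold change -0.74, SE 0.17, adjusted p = 0.122). Nes, the intermediate filament nestin, had 228 and 232 CPM in cKO and 308 and 321 CPM in control (log2 fold change -0.41, SE 0.10, adjusted p = 0.126). Hes5 and Vim overlapped between the genotypes. Mki67, a nuclear protein of cycling cells, was the only called gene of the G2 and M phase list, at 216 and 189 CPM in cKO and 320 and 342 CPM in control (log2 fold change -0.65, SE 0.11, adjusted p = 0.0427). Of the other 17 genes of that list 4 were higher and 5 lower in both cKO libraries, and none was called. The call for Mki67 was lost without control 2 (adjusted p = 0.166).

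Neurog1, a proneural bHLH factor, was higher in cKO. It had 101 and 30 UMIs in the cKO libraries and 1 and 6 in the control libraries, or 21.6 and 26.3 CPM against 0.838 and 4.50 CPM (log2 fold change 2.91, SE 0.45, adjusted p = 0.0239), at chr13:56250478-56252163. The pooled ratio of cKO over control was 8.13 with an exact 95% counting interval of 3.84 to 20.6. The UMIs came from few cells, with at least 2 UMIs in 14 and 4 cKO cells and in 0 and 2 control cells. The interval takes each UMI as an independent draw and leaves out the spread among cells and libraries, so it is too narrow. In cKO 2 all 30 UMIs lay in Hoxb1-positive cells, and in cKO 1 87 of the 101 lay in cells with no Hoxb1. Neurog1 was rare in dorsal cells, at 5 UMIs over all libraries, and was not tested there. Cells with ventral genes, which cKO 1 held in excess, had 33.7 CPM against 0.859 CPM in dorsal cells, and the part of that excess in the result was not tested. More of the UMIs lay in cells of the bin with neither dorsal nor ventral genes than in cells with ventral genes. That bin held 29 and 8 cells in cKO and 6 and 6 in control. Leaving out 1 library gave log2 fold changes of 2.32 (without control 1) to 4.25 (without control 2). The cells with at least 2 UMIs also led in Neurog2, at 295 against 13.2 CPM, and in Neurod1, at 82.4 against 3.11 CPM. Neurog1 is abundant in other cells of the dissected tissue (51.0 and 41.2 CPM in Epcam-positive cKO cells, 19.6 and 18.8 CPM in control), leukocytes held 1.20 to 8.82 CPM, and the part of free RNA or doublets in the result was not tested beyond leaving out the highest doublet scores, which gave a log2 fold change of 2.54 and ended the call (adjusted p = 0.0800).

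Other genes of the Notch and neurogenesis list were mostly higher in both cKO libraries without passing. Of 16 tested, 9 were higher and 2 lower in both cKO libraries, against 18% and 26.9% of all tested genes, with a median log2 fold change of 0.74 and 1 call, Neurog1. In the dorsal cells alone the median over 13 tested genes was 0.51. Dll1, a Notch ligand of newborn neurons, had 42.6 and 35.98 CPM in cKO and 21.0 and 24.7 CPM in control (log2 fold change 0.84, SE 0.22, adjusted p = 0.142). Jag1, a Notch ligand of intermediate domains, had 29.9 and 24.6 CPM in cKO and 15.9 and 9.74 CPM in control (log2 fold change 1.16, SE 0.29, adjusted p = 0.136). Hes6, a HES factor of differentiating cells, had 105 and 122 CPM in cKO and 59.5 and 82.4 CPM in control (adjusted p = 0.126). Notch1 and Notch3, receptors on progenitors, were the 2 lower ones.

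**Figure D4:**
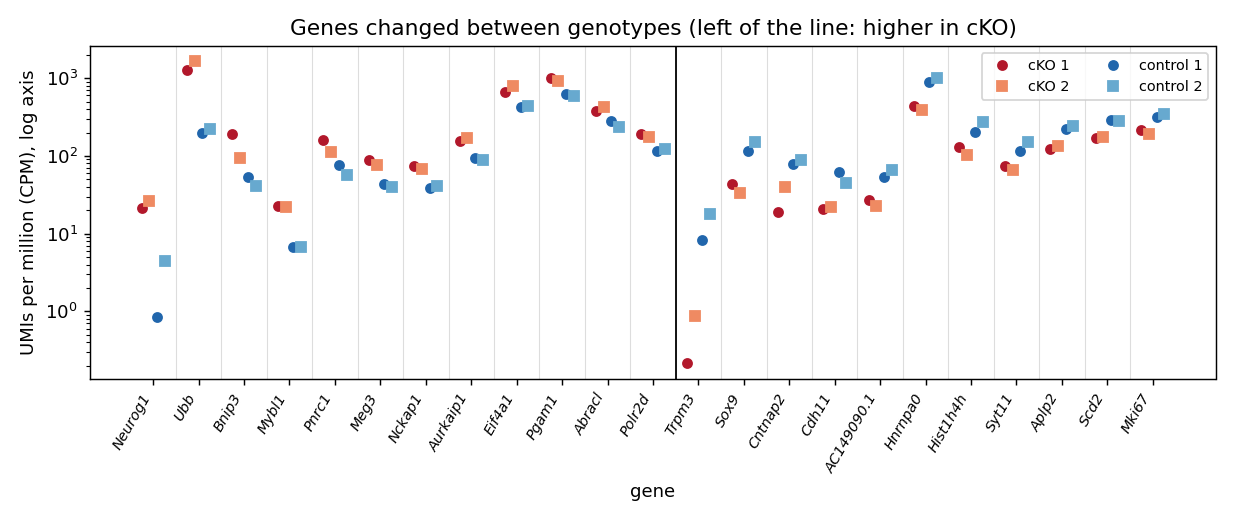
The 12 largest rises (left of the line) and 11 of the 12 largest falls (right) among called genes, in CPM on a log axis, with 1 point per library. For every gene shown both cKO libraries lie on one side of both control libraries, with the widest distances for Trpm3, Neurog1 and Ubb.

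Genes of glycolysis and hypoxia, taken as 1 list, formed the list with the most calls. Of 15 tested, 5 rose in cKO (Aldoa, Pgk1, Pgam1, Ldha and Bnip3), none fell, and 11 were higher in both cKO libraries (0.26% of all tested genes were called higher and 18% were higher in both), with a median log2 fold change of 0.63. Pgam1, the phosphoglycerate mutase, had 1018 and 924 CPM in cKO and 626 and 594 CPM in control (log2 fold change 0.72, SE 0.09, adjusted p = 0.00887). Pgk1, the phosphoglycerate kinase, had 720 and 696 CPM in cKO and 463 and 477 CPM in control (log2 fold change 0.63, SE 0.09, adjusted p = 0.0136). Ldha, the lactate dehydrogenase subunit, had 1832 and 1682 CPM in cKO and 1262 and 1101 CPM in control (log2 fold change 0.62, SE 0.10, adjusted p = 0.0248). The levels of these enzymes lay close together within each genotype. Bnip3, a mitophagy receptor induced by hypoxia, had 194 and 93.0 CPM in cKO and 52.8 and 40.5 CPM in control (log2 fold change 1.74, SE 0.30, adjusted p = 0.0427). Its fold change was 1.04 without cKO 1, and its call was lost without control 2 (adjusted p = 0.147). In the dorsal cells alone Bnip3, Ldha and Aldoa were not called (adjusted p 0.0533, 0.0602 and 0.0729), at log2 fold changes of 1.67, 0.58 and 0.63, against 1.74, 0.62 and 0.62 in all progenitors. Vegfa, a secreted hypoxia target, overlapped between the genotypes.

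The 3 called genes of that list with a single RefSeq promoter entry and a match are shown by the 250 bases before their start (GRCm38.p6), since they moved together and the list holds known hypoxia targets. Capitals mark ACGTG, the core of the hypoxia response element, on either strand. The regions are chr19:41911621-41911870 on the plus strand, chrX:106186850-106187099 on the plus strand and chr7:138909507-138909756 on the minus strand.
Pgam1: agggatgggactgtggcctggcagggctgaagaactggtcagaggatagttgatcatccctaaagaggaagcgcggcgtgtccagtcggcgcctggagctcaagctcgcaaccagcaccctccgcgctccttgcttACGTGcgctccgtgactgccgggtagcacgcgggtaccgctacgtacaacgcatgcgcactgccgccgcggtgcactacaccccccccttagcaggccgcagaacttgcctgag
Pgk1: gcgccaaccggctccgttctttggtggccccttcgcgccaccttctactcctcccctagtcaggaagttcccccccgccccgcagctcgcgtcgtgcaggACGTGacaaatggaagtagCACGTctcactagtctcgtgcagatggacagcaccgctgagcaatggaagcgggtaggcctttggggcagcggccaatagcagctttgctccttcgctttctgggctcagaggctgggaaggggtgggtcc
Bnip3: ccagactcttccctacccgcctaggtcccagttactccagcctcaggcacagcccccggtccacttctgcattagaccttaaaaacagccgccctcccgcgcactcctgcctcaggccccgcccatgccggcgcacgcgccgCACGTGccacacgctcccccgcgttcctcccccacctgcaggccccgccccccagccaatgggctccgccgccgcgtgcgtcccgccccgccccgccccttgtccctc
Pgk1 held 2 matches, Pgam1 held 1 and Bnip3 held 2 that overlap on opposite strands. Ldha and Aldoa have several entries, of which 1 of 2 and 2 of 3 held the motif. Among 32851 entries 16.6% did. The matches describe these letters and were not tested against the change in level.

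Of 13 mitochondrially encoded genes tested 7 were called, all lower in cKO, and 6 did not pass. Both cKO libraries were below both control libraries for 11 of them. Over all tested genes 0.296% were called lower and 26.9% were lower in both. The gene mt-Nd1, a subunit of complex I, had 591 and 669 CPM in cKO and 1402 and 1719 CPM in control (log2 fold change -1.27, adjusted p = 0.000711). This goes with the lower mitochondrial share of all other filtered cells, 1.33% and 1.38% in cKO and 2.42% and 2.97% in control at the median, and the part of RNA quality or handling in these results was not tested.

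Among the remaining named rises, Mybl1, a MYB-family transcription factor, had 22.9 and 21.9 CPM in cKO and 6.71 and 6.74 CPM in control (log2 fold change 1.72, SE 0.31, adjusted p = 0.0448). Meg3, an imprinted noncoding RNA, had 89.0 and 76.3 CPM in cKO and 43.6 and 39.7 CPM in control (log2 fold change 1.05, SE 0.17, adjusted p = 0.0278). It lost its call in 1 of 12 alternatives. Pnrc1, Nckap1, Aurkaip1, Eif4a1, Abracl and Polr2d rose by 0.67 to 1.15 on the log2 scale. Eif4a1, an RNA helicase of translation initiation, kept its call under all 13 alternatives run, while Nckap1 lost its call in 6 of 12 (adjusted p up to 0.181), Polr2d in 3 of 13 (up to 0.159), and Pnrc1, Aurkaip1 and Abracl in 1 of 13 each, without control 2. Among the falls, Hnrnpa0, an RNA-binding protein, had 437 and 394 CPM in cKO and 886 and 1006 CPM in control (log2 fold change -1.14, SE 0.10, adjusted p = 0.000711). Hist1h4h, Syt11, Aplp2, Scd2 and AC149090.1 fell by between 0.69 and 1.17 on the log2 scale. Syt11 lost its call in 3 of 13 alternatives, Hist1h4h, Aplp2 and Scd2 in 1 of 13 each, and AC149090.1 in 1 of 12. Mybl1 lost its call without cKO 1, without control 1 and without control 2, at adjusted p of 0.0598, 0.0772 and 0.178.

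The largest fall lay in the Rspo1-positive cells. Trpm3, a cation channel of choroid plexus and other epithelia, at chr19:22139046-22995410, had 1 and 1 UMIs in cKO and 10 and 24 in control, a pooled ratio of 0.0256 with an exact 95% counting interval of 0.00298 to 0.0997 (fitted log2 fold change -4.02, SE 0.62, adjusted p = 0.0229). Of these UMIs 0 and 1 in cKO and 9 and 22 in control were in the Rspo1-positive cells. The control UMIs lay almost wholly in 3 cells, 1 in control 1 and 2 in control 2. The counting interval takes each UMI as an independent draw and leaves out the spread among cells and libraries, so it is too narrow. Leukocytes held 0.408 to 4.41 CPM of Trpm3, so the cKO level of 0.214 and 0.877 CPM was at background. Without control 2 the gene failed the filter on low counts and was not tested. Values of Clic6 and Ttr are given as a description, since both were chosen after their values had been seen. Clic6, a chloride channel protein, had 0 and 1 UMIs in the cKO cells with Rspo1 and 9 and 11 in the control ones, from 2 and 3 cells. Ttr, the thyroid hormone carrier transthyretin, had 0 and 0 against 1 and 37, and all 37 lay in 1 cell.

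Cntnap2, a neurexin-family adhesion protein, had 19.03 and 39.5 CPM in cKO and 78.8 and 89.2 CPM in control over all progenitors (log2 fold change -1.67, SE 0.27, adjusted p = 0.0330), with a fold change of -1.03 without cKO 1 and no call without control 2 (adjusted p = 0.0960). In Rspo1-positive cells it had 338 and 151 CPM in cKO and 305 and 464 CPM in control, which overlap, and in cells without Rspo1 it had 5.90 and 4.85 CPM in cKO and 9.27 and 20.7 CPM in control. The Rspo1-positive cells were 3.66% and 17.7% of the cKO cells and 18.2% and 10.8% of the control cells, and their part in the fall of Cntnap2 was not tested. Cdh11, a cadherin, had 20.5 and 21.9 CPM in cKO and 61.2 and 44.96 CPM in control (log2 fold change -1.27, SE 0.22, adjusted p = 0.0427). Its call was lost in 3 of 12 alternatives.

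Whether the progenitors changed like cells with at least 1 Epcam UMI was tested with a genotype by cell set interaction. It used 10816 Epcam-positive cells of the same libraries, with the library as a block. In the Epcam-positive cells alone 6010 of 16677 genes were called (36%). Their sums were far deeper, at 76502014 to 106306889 UMIs per library against 1139670 to 4675812 in the progenitors. Of 15871 genes 235 were called (1.48%), of which 107 had the more positive fold change in the progenitors and 128 the more negative one. With size factors from the RLE method the split was 101 and 181. Without cKO 1 there were 141 calls and without control 2 there were 143. Meg3 was higher in cKO progenitors and lower in Epcam-positive cKO cells, at 87.6 and 95.7 CPM against 146 and 125 CPM in control, a difference of 1.57 on the log2 scale (SE 0.17, adjusted p = 2.08e-17). Bnip3 had the larger rise in the progenitors, by 0.91 (adjusted p = 8.92e-06). Pgam1, Ubb, Hnrnpa0 and Mki67 were not called in this comparison, and their differences lay between -0.23 and 0.17. Differences given for this comparison are estimates of the joint fit and need not equal the gap between separately fitted fold changes.

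**Figure D5:**
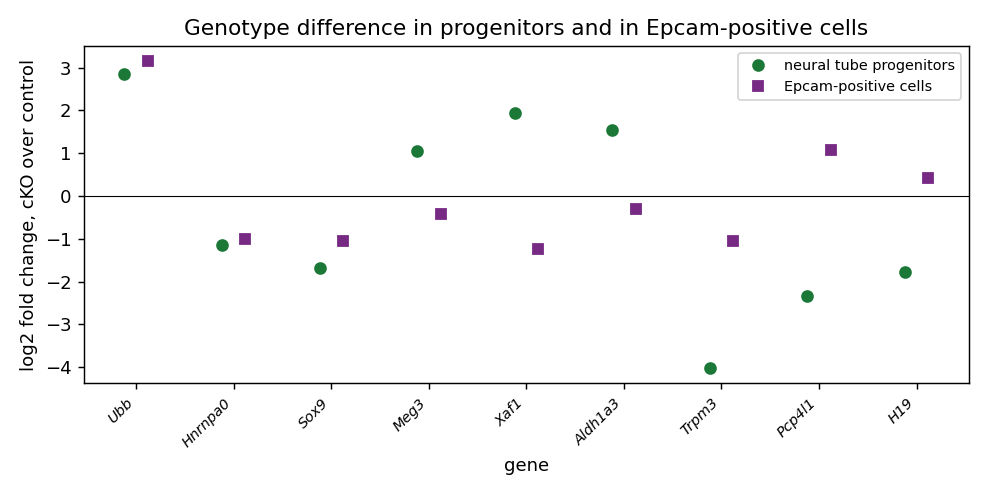
Log2 fold change of cKO over control, from separate fits, in the progenitors (circles) and in Epcam-positive cells (squares) for 9 genes. Ubb and Hnrnpa0 nearly coincide, at 2.85 and 3.15 for Ubb, while Meg3, Xaf1, Aldh1a3, Pcp4l1 and H19 lie on opposite sides of 0.

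Aldh1a3, a retinaldehyde dehydrogenase that makes retinoic acid, had 27.4 and 15.8 CPM in cKO progenitors and 10.9 and 5.25 CPM in control progenitors. In Epcam-positive cells it had 18.98 and 16.7 CPM in cKO and 21.9 and 27.1 CPM in control, and the difference of the fold changes was 1.96 on the log2 scale (SE 0.35, adjusted p = 5.1e-06). Of the 8 retinoic acid genes tested within the progenitors 3 were higher and 1 lower in both cKO libraries (18% and 26.9% of all tested genes), and none passed. Pcp4l1, a small calmodulin-binding protein homologue, had 4.71 and 22.8 CPM in cKO progenitors and 60.4 and 44.2 CPM in control, with 2 of its 179 UMIs in cells without Rspo1. H19, an imprinted noncoding RNA, had 14.5 and 43.9 CPM in cKO progenitors and 83.01 and 84.7 CPM in control, and its Rspo1-positive cells had 186 and 178 CPM against 326 and 532 CPM. Over all progenitors Pcp4l1 and H19 were lower in both cKO libraries, as were 26.9% of all tested genes, and neither was called in the genotype test there. Both were also lower in cKO within the Rspo1-positive cells, a group defined after its values had been seen.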

How the data were processed

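Live GFP-positive cells were profiled with the 10x 3' v3.1 assay. The deposited matrices hold raw UMI counts per gene and called cell barcode, made by the authors with Cell Ranger (6.0.1 per the file headers, 3.1.0 per the submitters' processing notes, which also name mm10). The 4 libraries held 106769747 to 128205192 UMIs. From these counts, cells with at least 1000 genes and at most 10% mitochondrial UMIs were kept in Python 3.11.15, and the selection rule was applied. The members, subsets and gene lists were chosen with earlier results of these data known. UMIs were summed per library and tested with edgeR 4.0.16 (R 4.3.3; filterByExpr, TMM, prior count 1, quasi-likelihood test, two-sided, Benjamini-Hochberg threshold 0.05); sums were also tested with DESeq2 1.42.0. CPM are per total UMI of the summed cells. Doublets were not removed: the automatic Scrublet threshold (scanpy 1.11.5) marked at most 3 cells per library, so the highest scores, 0.8% per 1000 barcodes, were left out in an alternative; 4 members were among them. Genes named are Tbx2, Tbx3, list members, the 12 largest called rises and falls with at least 10 CPM in the higher genotype and no overlap of libraries, and the 6 largest interactions each way, without mitochondrial, ribosomal and Gm or Rik genes. Other genes were named after their values were seen. Results for a few genes are not reported here. Gene coordinates are from GENCODE vM21, which held 32158 of 32285 gene IDs. Intervals and floors (3 counts) cover counting error only. The fits were tested on simulated data.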

Additional observations from a re-analysis of the deposited data

Results flagged for a closer look

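The edgeR interaction test called 235 of 15871 genes at an adjusted p under 0.05. For these the genotype difference in the progenitors was not the same as in the Epcam-positive cells of the same libraries. Of the called genes 101 were eligible for naming. The 12 given here were chosen from those 101 by size, as the largest in each direction. Each value is the log2 interaction estimate of a joint fit of both cell sets, with the library as a block. It need not equal the gap between separately fitted fold changes, which for Trpm3 were -4.02 in the progenitors and -1.05 in Epcam-positive cells. A positive value means the more positive fold change of cKO over control in the progenitors. The more positive ones were Xaf1, an inhibitor of XIAP, at 3.24, Lsamp, a neuronal adhesion protein, at 2.65, Tceal3 at 2.09, Mef2c, a MADS-box factor, at 2.06, Aldh1a3 at 1.96, and Wfikkn1, a secreted protease inhibitor that binds myostatin, at 1.79. Xaf1 had 16.7 and 28.1 CPM in cKO progenitors and 5.03 and 5.25 CPM in control progenitors, against 2.08 and 2.05 CPM in Epcam-positive cKO cells and 7.95 and 2.80 CPM in Epcam-positive control cells.

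The more negative ones were Trpm3 at -3.99, Pcp4l1 at -3.32, Fgf15, a secreted FGF, at -3.20, Rgcc, a cell cycle regulator, at -3.07, Anxa3, an annexin, at -2.98, and H19 at -2.35. For Fgf15 the Epcam-positive cells held 10.2 and 9.20 CPM in cKO and 2.29 and 1.46 CPM in control, and the progenitors 5.35 and 7.02 CPM in cKO and 12.6 and 7.49 CPM in control. Rgcc had 19.3 CPM in the control 1 progenitors and 1.07 to 2.25 CPM in the other 3 libraries, so 1 library sets its value. Fgf15 and Rgcc did not pass the filter on low counts in the progenitors alone, so they have no separate fold change there.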

How the results depend on the processing

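Against 47 called genes, no filter on low counts gave 329, DESeq2 72, at least 5 summed UMIs 73 and the replicate block 187; all 47 were among the calls of the block fit. The labels do not say what the replicate number marks. Deviations of same-numbered libraries were not correlated over genes (r = -0.0050), which does not exclude that the numbers pair the libraries. Leaving out 1 library gave 30 to 346 calls, and 141 to 320 interaction calls against 235. Of 23 named genes with a value, 8 kept their call without control 2. No named gene reversed under any alternative run, which the naming rule, with no overlap of libraries, largely fixed beforehand. The share among filtered cells differed by 0.0572 to 4.16 points when 1 library was left out. The Hox-negative share, 1.81 points, became -2.88 at 3 UMIs and -5.92 thinned to 10000 UMIs, and -0.954 to 4.58 with 1 library left out. The dorsal share, -7.74 points, ranged from -18.2 to 2.74, the last without cKO 1. The causes were not tested. With 55 to 191 cells per library, counts of rare genes set the precision, and 2 libraries a genotype allow no permutation p below 0.333.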
